A study of Mus musculus with 4 samples.

Results

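The genes described here are 9 integrin subunits and *Vcam1*: the alpha subunits *Itga7*, *Itga3*, *Itga6*, *Itga5*, *Itgav*, *Itga4* and *Itga9*, the beta subunits *Itgb1* and *Itgb5*, and *Vcam1*. They are 10 of the 27998 genes in the count tables, which hold 26 integrin alpha and beta subunit genes in all. They were chosen by name, as the proteins used to sort satellite cells and their nearest relatives and partners, and not by their measured values. Earlier results of these data were known when the choice was made.

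Satellite cells are the stem cells of skeletal muscle and lie between the muscle fiber and its basement membrane. Integrins are surface receptors made of 1 alpha and 1 beta chain, and the pair decides which matrix protein or cell surface protein is bound. The pair of ITGA7 and ITGB1 binds laminin of the basement membrane, and VCAM1 is an immunoglobulin-type adhesion protein whose partners are the integrins that hold ITGA4 or ITGA9 beside ITGB1. The antibody sort for ITGA7 and VCAM1 is a common way to isolate satellite cells, so the RNA of both genes was read here in cells that had already passed a gate on both proteins.

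Single-cell RNA-seq with 3′ tags was run on 4 libraries, 1 per mouse strain, each from the lower hindlimb muscles of 2 pooled mice. B10 (C57/Bl10ScsSn, 15 weeks old) is the healthy counterpart of *mdx* (C57BL/10ScSn-Dmdmdx, 11 weeks), and DBA (DBA/2, 13 weeks) that of D2-*mdx* (D2.B10-Dmdmdx, 14 weeks). The *mdx* and D2-*mdx* mice carry the *mdx* allele of *Dmd*, a point mutation that 3′ tags do not read. The strain labels were taken as given and were not checked against the counts. Cells of all 4 libraries were sorted as ITGA7+/VCAM+ and negative for the lineage proteins CD11b, SCA1, CD45 and CD31. With 1 library per strain there is no replicate check and no test between single strains, the age differs along with the strain, and all intervals given are exact 95% intervals that cover counting error only.

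After filtering, 4581 cells of B10, 6313 of *mdx*, 3279 of DBA and 5756 of D2-*mdx* remained, with medians of 8466, 7021, 10434 and 6666 unique molecular identifiers (UMIs, counted transcripts) per cell. The B10 library stood apart in its deposited barcodes, since 4739 of 9931 had fewer than 1000 genes, with a median mitochondrial share of 71.4%, against 11 to 21 such barcodes in the other libraries. No comparison with B10 can be made without that library, and those barcodes were left out of it. Any pair of libraries shared 3 to 8 kept barcodes. Of the kept cells, 4418, 4827, 2703 and 4189 were myogenic, meaning that their cluster carried satellite cell or myoblast markers.

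Cells were clustered with every integrin gene and *Vcam1* removed from the features, so the levels of these genes did not enter the clustering. Where 4 values are given together, they are those of B10, *mdx*, DBA and D2-*mdx*, in that order. The myogenic clusters were MuSC-like (muscle stem cell-like; 4116, 3261, 2544 and 2929 cells in B10, *mdx*, DBA and D2-*mdx*), DMD-enriched-like (30, 949, 27 and 549), cycling progenitor-like (15, 165, 29 and 329), differentiating myocyte-like (152, 369, 90 and 348) and immunomyoblast-like (105, 83, 13 and 34). All 9 MuSC markers, among them *Pax7*, were detected in the MuSC-like cells of each library, with a summed level of 6254, 4207, 6661 and 4632 CPM (UMIs of a gene scaled to a common total of all UMIs). The state names held less well in the healthy libraries: the summed markers of the differentiating myocyte-like cells were at 560 CPM in B10 and 741 CPM in DBA, where *mdx* had 4812 and D2-*mdx* 3418 CPM, and those of the DMD-enriched-like cells at 1052 and 856 CPM against 4850 and 3368. A cluster entered a comparison in a library with at least 20 cells.

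**Figure D1:**
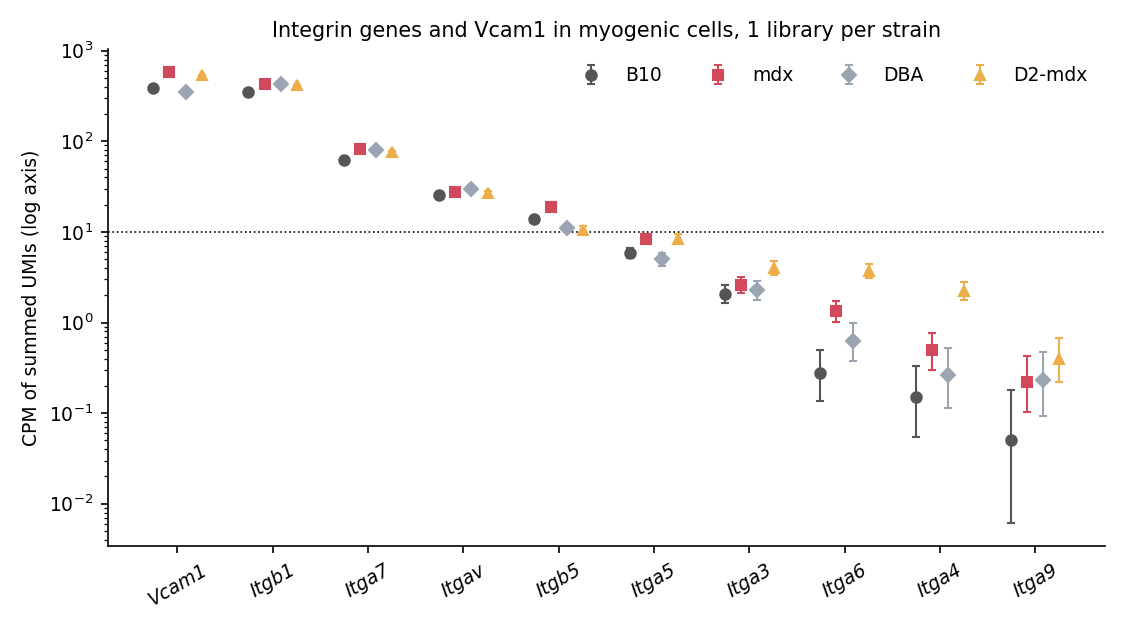
CPM of the summed UMIs of all myogenic cells (log axis) for each of the 10 genes on the horizontal axis, with 1 point per library and bars for the exact 95% counting interval. *Vcam1* (353 to 577 CPM) and *Itgb1* (349 to 431 CPM) stood highest, 5 genes reached the dotted line at 10 CPM in all libraries, and *Itga9* stayed at or below 0.4 CPM.

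Among the laminin receptors, *Itga7* was by far the most abundant alpha chain of the satellite cells. *Itga7* (ENSMUSG00000025348, GRCm38 chr10:128933818-128958282, forward strand) overlaps *Mettl7b* on the other strand, and 3′ tags do not tell its splice forms apart. Over all myogenic cells, the B10 library held 2488 UMIs of it, a level of 62.4 CPM (95% interval 59.9 to 64.9). The *mdx* library held 3327 UMIs or 82.4 CPM (79.6 to 85.2), DBA 2419 UMIs or 80.2 CPM (77 to 83.5), and D2-*mdx* 2644 UMIs or 75.6 CPM (72.8 to 78.6). B10 was the low library, and the other 3 lay close together. The log2 ratio of *mdx* over B10 was 0.40 (0.33 to 0.48), while that of D2-*mdx* over DBA was −0.08 (−0.16 to −0.00). DBA exceeded B10 by about as much as *mdx* did, with a log2 ratio of 0.36 (0.28 to 0.44). In MuSC-like cells alone *Itga7* was at 60.5, 69.2, 78.2 and 65.7 CPM, and the 2 disease ratios, *mdx* to B10 and D2-*mdx* to DBA, were 0.19 and −0.25 on the log2 scale.

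The other laminin-binding alpha chains were scarce in the myogenic cells. *Itga3* (chr11:95044474-95076801, reverse strand), whose product also binds laminin, was at 2.08, 2.60, 2.29 and 4.005 CPM, and *Itga6* (chr2:71745616-71858416, forward strand), the laminin receptor chain of many epithelia and of endothelium, at 0.276, 1.34, 0.63 and 3.75 CPM. Of the summed UMIs of *Itga7*, *Itga3* and *Itga6*, *Itga7* held 96.4%, 95.4%, 96.5% and 90.7%. *Itga6* had 11 UMIs in B10 against 54 in *mdx* (log2 ratio 2.28, 1.33 to 3.36), and 19 in DBA against 131 in D2-*mdx* (log2 ratio 2.57, 1.87 to 3.35), all at levels under 10 CPM. Endothelial markers, whose own cells held *Itga6* at 448 CPM in *mdx* and 471 in D2-*mdx*, moved in the same direction within MuSC-like cells: the summed CPM of the 8 endothelial markers there was 3.52 in B10 and 5.11 in DBA, against 14.3 for *mdx* and 17.2 for D2-*mdx*. Cycling progenitor-like cells held *Itga6* at 11.2 CPM in D2-*mdx* (329 cells) and 0 in DBA (29 cells). MuSC-like cells ranged from 0.275 CPM in B10 to 2.08 in D2-*mdx*. The parts of endothelial RNA and of the mix of states in the *Itga6* ratios were not tested.

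*Itgb1* (GRCm38 chr8:128685654-128733200, forward strand), the common beta chain that pairs with most of these alpha chains, gave 13920 UMIs in B10, or 349 CPM (343 to 355), and 17399 UMIs in *mdx*, or 431 CPM (424 to 437). DBA held 12854 UMIs, or 426 CPM (419 to 434), and D2-*mdx* 14544 UMIs, or 416 CPM (409 to 423). As for *Itga7*, B10 was the low library and the other 3 were within a narrow range. The log2 ratio of *mdx* over B10 was 0.30 (0.27 to 0.34) and that of DBA over B10 was 0.29 (0.25 to 0.32). D2-*mdx* over DBA gave −0.03 (−0.07 to −0.00), a sign that turned to 0.01 with TMM library sizes, 0.04 with median-of-ratios size factors and 0.01 in MuSC-like cells alone. *Itgb5* (chr16:33829665-33949338, forward strand), a beta chain that pairs with ITGAV, was lower, and over the myogenic cells stood higher in both B10-background libraries, at 13.9 CPM in B10 and 18.8 in *mdx* but 11.0 in DBA and 10.5 in D2-*mdx*. D2-*mdx* stood below *mdx* by a log2 ratio of −0.84 (−1.02 to −0.66), and DBA below B10 by −0.34 (−0.54 to −0.14). Both signs turned when all cells that passed the filters were summed, to 0.09 and 1.21, sums that also hold the non-myogenic cells with their higher *Itgb5*.

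Among the alpha chains that bind fibronectin and other ligands with an RGD sequence, *Itgav* (chr2:83724397-83806916, forward strand) differed little between libraries. It was at 25.6, 27.4, 30.1 and 26.7 CPM in B10, *mdx*, DBA and D2-*mdx*, with a log2 ratio of 0.09 (−0.03 to 0.22) between *mdx* and B10 and one of −0.17 (−0.31 to −0.04) between D2-*mdx* and DBA. *Itga5* (chr15:103344286-103366763, reverse strand), the alpha chain of the classical fibronectin receptor, was at 5.87, 8.37, 4.97 and 8.35 CPM. Both dystrophic libraries stood above both healthy ones for *Itga5*, with log2 ratios of 0.51 (0.27 to 0.76) and 0.75 (0.46 to 1.04).

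*Vcam1* (GRCm38 chr3:116109949-116129688, reverse strand, overlapping the predicted gene *Gm43109* on the other strand) was higher in the dystrophic libraries. In the healthy myogenic cells, B10 held 15424 UMIs, or 387 CPM (381 to 393), and DBA 10655 UMIs, or 353 CPM (347 to 360). In the dystrophic cells, *mdx* held 23325 UMIs, or 577 CPM (570 to 585), and D2-*mdx* 18741 UMIs, or 536 CPM (528 to 544). Both dystrophic libraries lay above both healthy libraries, and the intervals did not overlap. Divided by its healthy counterpart, *mdx* gave a log2 ratio of 0.58 (0.55 to 0.61) and D2-*mdx* one of 0.60 (0.57 to 0.64), while D2-*mdx* over *mdx* gave −0.11 (−0.13 to −0.08) and DBA over B10 −0.13 (−0.17 to −0.09). In MuSC-like cells alone the levels were 382, 628, 354 and 602 CPM, and both ratios were larger, at 0.72 (0.68 to 0.75) and 0.77 (0.73 to 0.80). The size of the D2-*mdx* over DBA ratio depended on the cell filter. Over all myogenic cells it fell to 0.24 with at least 500 genes and no upper limit. RNA that can reach droplets from outside the cell differed between the same MuSC-like cells: *Acta1*, a muscle fiber gene, was at 10.2, 23.3, 9.79 and 81.3 CPM, and the red cell genes *Hbb-bs* and *Hba-a1* were at 14.5, 473, 188 and 811 CPM and at 4.35, 181, 116 and 385 CPM. The satellite cell genes *Pax7*, *Chodl* and *Myf5* had log2 ratios over all myogenic cells of −1.10, −0.37 and −0.19 for *mdx* over B10 and −0.71, −0.82 and −0.41 for D2-*mdx* over DBA. The part of these genes' RNA in the *Vcam1* ratio was not tested.

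The alpha chains that receive VCAM1 were at low levels in the cells that carried it. *Itga4* (chr2:79255426-79333123, forward strand, overlapping *Cerkl* on the other strand) had 6, 20, 8 and 78 UMIs over all myogenic cells of B10, *mdx*, DBA and D2-*mdx*, or 0.15, 0.495, 0.265 and 2.23 CPM, and *Itga9* (chr9:118606690-118901003, forward strand) had 2, 9, 7 and 14 UMIs, or 0.0501, 0.223, 0.232 and 0.4 CPM. The *Itga4* log2 ratio was 1.72 (0.35 to 3.32) on the B10 background and 3.07 (2.02 to 4.33) on the DBA background. White blood cell markers moved alongside it: the summed CPM of the 9 such markers in MuSC-like cells was 1.95 in B10 and 12.8 in DBA, against 53.6 for *mdx* and 130 for D2-*mdx*, with *Ptprc*, which encodes CD45, at 0 in B10 and at 2.4, 0.8 and 1.5 CPM in the others. Their part in the *Itga4* ratio was not tested. Within the MuSC-like cells the *Itga4* UMIs were uneven. The second largest cluster held 1, 10, 1 and 34 of them, or 0.112, 1.96, 0.143 and 10.8 CPM. *Vcam1* there was at 406, 717, 384 and 767 CPM. *Gm3336* and the red cell gene *Hbb-bs* led that cluster, which had a median of 6579 UMIs per cell. The part of RNA from outside the cell in its values was not tested.

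Measured against a 2-fold limit with at least 10 CPM in either library, none of the 5 genes that reached this level (*Itga7*, *Itgb1*, *Vcam1*, *Itgav* and *Itgb5*) passed it in any of the 4 comparisons. Over all genes at that level, 9.85% of 8477 passed it for *mdx* over B10, 11.7% of 8504 for D2-*mdx* over DBA, 3.53% of 8181 for D2-*mdx* over *mdx* and 3.55% of 8344 for DBA over B10. The median log2 ratio of the 5 genes was 0.40 between *mdx* and B10 and −0.07 between D2-*mdx* and DBA, beside −0.03 and −0.07 for all genes. No member passed the limit in MuSC-like cells alone either, where the shares over all genes were 6.61%, 7.46%, 3.45% and 3.61%. The ratios of *Itga3*, *Itga4*, *Itga5*, *Itga6* and *Itga9* rest on levels under 10 CPM and did not enter these counts.

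Taken as 2 healthy against 2 dystrophic libraries, the sums of the myogenic cells allow a test across genes, which was added after the values had been seen. It treats B10 and DBA as replicates of one group and *mdx* and D2-*mdx* as those of the other, although each is a strain of its own with its own age. *Vcam1* was higher in the dystrophic libraries, with a log2 fold change of 0.64 (SE 0.12) and an adjusted p of 0.0438 by edgeR's quasi-likelihood test with Benjamini-Hochberg adjustment, and was the single listed gene called, where 10.4% of 14292 genes were. The call was lost in MuSC-like cells alone (log2 fold change 0.81, edgeR adjusted p of 0.0621, where 0.867% of genes were called). It was also lost when any library was left out, at log2 fold changes of 0.57 to 0.70. Such a fit leaves a group without a replicate, and calls over all genes fell as well, so this loss is not particular to *Vcam1*. With the strain background as a block, *Itga6* (log2 fold change 2.48), *Itga4* (2.52) and *Itga5* (0.67) were called beside *Vcam1* at edgeR adjusted p-values of 0.00979, 0.0259, 0.0467 and 0.0135, where 31.5% of genes were. In MuSC-like cells with that block *Vcam1*, *Itga6* and *Itga4* were called, where 15.8% of genes were, and DESeq2 without it called *Vcam1* and *Itga6*, where 23.6% of genes were. *Itga7*, *Itgb1*, *Itgav*, *Itgb5* and *Itga3* were called in none of these fits, and *Itga9* was below their filter on low counts when all 4 libraries entered.

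**Figure D2:**
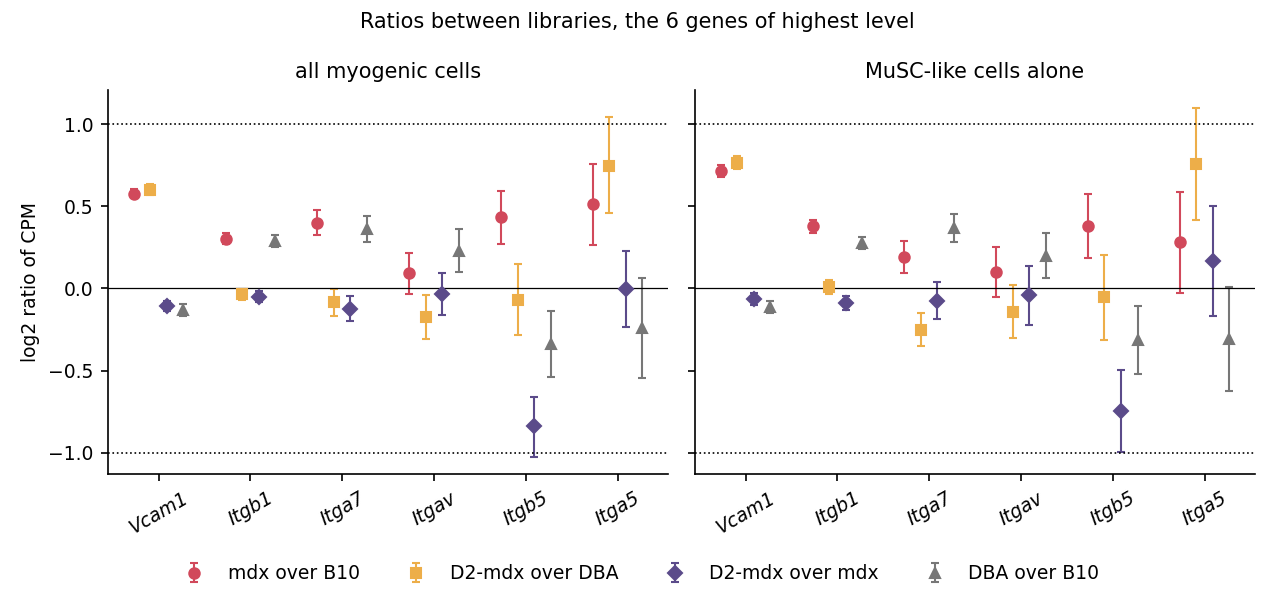
Log2 ratio of CPM between libraries for the 6 genes of highest level, in all myogenic cells (left) and MuSC-like cells alone (right), with exact 95% counting intervals, and dotted lines at 2-fold either way. *Vcam1* was higher in *mdx* than B10 and in D2-*mdx* than DBA by nearly the same log2 ratio (0.58 and 0.60), while *Itgb1* and *Itga7* exceeded B10 in both *mdx* and DBA.

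The *Vcam1* difference was present in each of the 4 clusters that made up the MuSC-like cells. In the largest, led by immediate-early genes (2330, 1973, 1483 and 1969 cells), *Vcam1* was at 371, 574, 331 and 585 CPM in B10, *mdx*, DBA and D2-*mdx*. The next largest had the *Vcam1* levels given above beside *Itga4*, the cluster led by *Esm1*, *Fosl1*, *Tnc* and *Plaur* had 386, 691, 371 and 495 CPM, and the smallest, led by *Hhip* and *Dlk1*, had 388, 691, 448 and 572 CPM. *Itga7* showed no such common direction. In the cluster led by *Hhip* and *Dlk1* the healthy libraries held 61.3 (B10, 46.7 to 78.8) and 89.3 CPM (DBA). The dystrophic ones held 40.2 (*mdx*, 20.8 to 70.3, on 12 UMIs from 43 cells) and 39.9 CPM (D2-*mdx*, on 28 UMIs). The intervals of *mdx* and B10 thus overlapped. In the *Esm1* cluster *Itga7* was at 67.5 (B10) and 80.6 CPM (DBA) in the healthy and at 105 (*mdx*) and 78.9 CPM (D2-*mdx*) in the dystrophic libraries. *Itga5* in the *Esm1* cluster was at 5.16 (B10) and 6.45 CPM (DBA) in healthy and at 16.7 (*mdx*) and 15.9 CPM (D2-*mdx*) in dystrophic muscle. That direction was not common to all clusters. In B10, *mdx*, DBA and D2-*mdx*, *Itga5* was at 6.23, 4.87, 5.21 and 6.81 CPM in the largest cluster. The next largest had 5.91, 8.05, 3.14 and 7.28 CPM, and the smallest 8.17, 6.70 (on 2 UMIs), 6.38 and 7.13 CPM. In the largest and the smallest, *mdx* thus lay below B10.

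Across the myogenic states, most values of these genes stayed within 2-fold of the MuSC-like level. Of 75 values at 10 CPM or more, over 14 sums of a state in a library, 4 differed from the MuSC-like cells of the same library by 2-fold or more, 2 higher and 2 lower, beside 5.9% of all genes higher and 7% lower in the same sums. These were *Itga5* in the DMD-enriched-like cells of DBA (2.48-fold, on 5 UMIs from 27 cells and with a log2 interval of −0.33 to 2.57, where 5.42% of all genes were higher), and, all in the cycling progenitor-like cells of D2-*mdx*, *Itga6* (5.40-fold, where 13% were higher), *Vcam1* (0.435-fold) and *Itgb5* (0.421-fold, where 17.8% were lower). The *Itga5* and *Itga6* values, 12.2 and 11.2 CPM beside 4.90 and 2.08 CPM in MuSC-like cells, passed the minimum only in the state where they were high. Both had to be at least 2-fold higher to pass it, so these values are descriptions only. The count was 0 with predicted doublets kept or with 20 dimensions, settings under which the classes themselves differed, and 8 with a wider cell filter.

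*Itga7* passed the 2-fold limit in no state and was above its MuSC-like level in both dystrophic libraries in the DMD-enriched-like, cycling and differentiating cells. In DMD-enriched-like cells it was at 40.7 CPM on 13 UMIs from 30 cells of B10, and at 104, 122 and 92.5 CPM in the *mdx*, DBA and D2-*mdx* cells, with log2 ratios to MuSC-like cells of −0.57 (−1.48 to 0.20), 0.58 (0.47 to 0.69), 0.64 (0.20 to 1.04) and 0.49 (0.35 to 0.63). The B10 value went the other way on few UMIs. It kept its sign in 3 of 4 alternatives, and turned to 0.64 with predicted doublets kept, where the class was another set of 220 B10 cells. In cycling progenitor-like cells *Itga7* was at 86.0, 100.1 and 83.1 CPM in *mdx*, DBA and D2-*mdx*, and in differentiating myocyte-like cells at 102, 82.7, 102 and 85.4 CPM in B10, *mdx*, DBA and D2-*mdx*. The immunomyoblast-like cells, named for interferon-response genes, had 44.3, 80.5 and 60.0 CPM in B10, *mdx* and D2-*mdx*.

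*Vcam1* was lowest in the cycling progenitor-like cells, at 341, 279 and 262 CPM in the *mdx*, DBA and D2-*mdx* libraries, which was 54.3%, 78.8% and 43.5% of the MuSC-like level. In differentiating myocyte-like cells it was at 430, 392, 342 and 429 CPM, or 113%, 62.4%, 96.6% and 71.3% of MuSC-like cells in B10, *mdx*, DBA and D2-*mdx*. The DMD-enriched-like cells held 514, 602, 370 and 623 CPM, and the immunomyoblast-like cells held 427, 733 and 767 CPM in B10, *mdx* and D2-*mdx*. Within a state, *mdx* over B10 gave a *Vcam1* log2 ratio of 0.23 (0.01 to 0.46) in DMD-enriched-like and −0.14 (−0.25 to −0.02) in differentiating myocyte-like cells, and D2-*mdx* over DBA gave 0.75 (0.52 to 1.00) and 0.33 (0.18 to 0.48). The markers that name these states were much lower in the B10 and DBA cells, as given above, so these ratios may compare unlike cells. *Itgb1* ranged from 327 to 564 CPM over all states and libraries outside the MuSC-like cells.

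**Figure D3:**
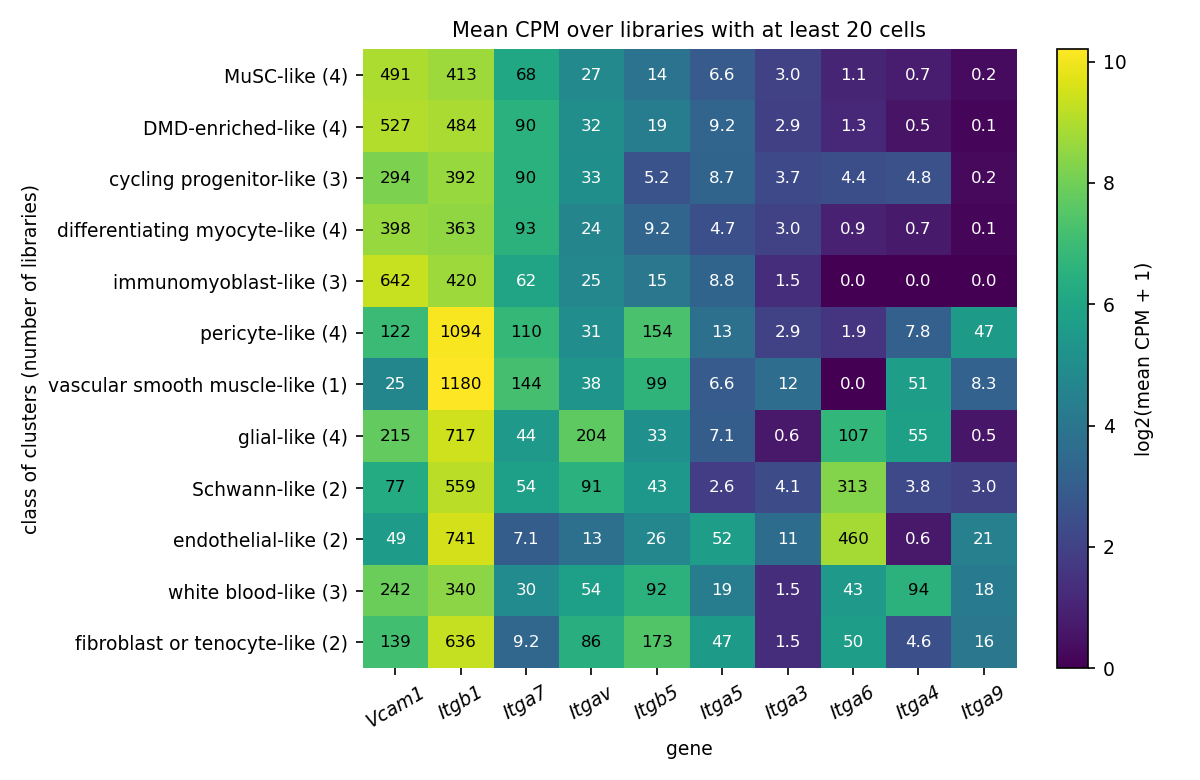
Heat map of mean CPM over the libraries with at least 20 cells (number of libraries beside each class name), classes of clusters as rows and the 10 genes as columns, colored by log2(mean CPM + 1). *Vcam1* was highest in the myogenic classes (294 to 642 CPM), *Itga7* in vascular smooth muscle-like (144 CPM) and pericyte-like cells (110 CPM), and *Itga6* in endothelial-like cells (460 CPM).

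The non-myogenic cells that had passed the ITGA7 and VCAM gate carried a different set of integrins. They numbered 163 and 576 in the healthy B10 and DBA libraries, and 1486 and 1567 in *mdx* and D2-*mdx*. Of 132 values at 10 CPM or more, over 18 sums of a class in a library, 98 differed by 2-fold or more from the MuSC-like cells of the same library, 73 higher and 25 lower. Of all genes at that level in the same sums, 18.8% were higher and 13.1% lower. Of the 73 higher values, 35 were of *Itga6* (13), *Itga9* (10), *Itga4* (9) and *Itga3* (3), which lay at or below 4.54 CPM in MuSC-like cells, so that any value of theirs that reached 10 CPM had to be at least 2-fold higher, and the count is no more than a description. The other 38 were of *Itgb5* (15 of 18 values), *Itgav* (10 of 18), *Itga5* (7 of 7, all reaching 10 CPM only outside the MuSC-like cells), *Itgb1* (5 of 18) and *Itga7* (1 of 18). In the pericyte-like cells the shares of all genes were 19.4%, 17.8%, 17.8% and 17.1% higher and 11.4%, 10.6%, 10.9% and 9.54% lower in B10, *mdx*, DBA and D2-*mdx*.

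Pericyte-like cells, the mural cells of small vessels, formed the largest group, with 97, 612, 484 and 981 cells. They had more *Itga7* than the MuSC-like cells in each of the 4 libraries, at 93.7 (76.2 to 114), 113 (104 to 123), 124 (115 to 134) and 107 CPM (99.5 to 114). The folds over MuSC-like cells were 1.55, 1.64, 1.59 and 1.62. Pericyte-like cells with no *Pax7* UMI held *Itga7* at 99.5, 114, 121 and 107 CPM (83, 584, 429 and 911 cells), and those with one at 66.0, 108, 145 and 103 CPM (14, 28, 55 and 70 cells). *Pax7* itself was at 47.3, 9.5, 25.5 and 14.6 CPM there against 925, 534, 716 and 584 CPM in MuSC-like cells.

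The same cells had less *Vcam1* than the satellite cells, at 136, 102, 135 and 116 CPM, or 35.7%, 16.2%, 38.0% and 19.3% of the MuSC-like level. The dystrophic excess of *Vcam1* seen in MuSC-like cells had the opposite sign, with a log2 ratio of −0.42 (−0.69 to −0.14) between *mdx* and B10 and of −0.21 (−0.35 to −0.07) between D2-*mdx* and DBA. *Itgb1* was at 985, 1132, 1212 and 1047 CPM, 2.45- to 2.86-fold the MuSC-like level, and *Itgb5* at 115, 159, 187 and 157 CPM, 8.19- to 16.5-fold. *Itga9*, which MuSC-like cells lacked almost entirely (0.0551 to 0.48 CPM), was at 50.2, 46.4, 51.8 and 38.9 CPM.

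Vascular smooth muscle-like cells reached the 20-cell minimum in *mdx* alone, with 56 cells. They had the highest *Itga7* of all classes, 144 CPM (115 to 178), which was 2.08-fold the MuSC-like level, and the lowest *Vcam1*, 24.9 CPM, which was 3.96% of it, where 17.8% of all genes were higher and 23.8% lower. *Itgb1* was at 1180 CPM and *Itga4* at 51.4 CPM.

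Glial-like and Schwann-like cells, the 2 nerve-associated classes, differed in their alpha chains. Glial-like cells (23, 357, 31 and 232) held *Itgav* at 140, 130, 247 and 298 CPM, *Itga6* at 193, 46.4, 118 and 70.8 CPM and *Itga4* at 101, 15.8, 58.8 and 44.7 CPM in B10, *mdx*, DBA and D2-*mdx*. *Itga7* was at 91.6 CPM in B10, on 19 UMIs, and at 26.5, 39.2 and 19.7 CPM in the others. In B10, 17 of these UMIs lay in 11 cells with a *Pax7* UMI (109 CPM, median depth 14818 UMIs). The 12 cells without one held 2 (38.5 CPM, median depth 4188.5 UMIs). The part of mixed droplets in the B10 value was not tested. Schwann-like cells held *Itga6* at 317 CPM in *mdx* and 309 in D2-*mdx*, with *Itga7* at 59.2 and 48.0 CPM. The glial-like cells also carried *Pax7* UMIs, at 395, 94.6, 311 and 118 CPM, and those without a *Pax7* UMI had less *Vcam1* (84.5 CPM in 266 cells against 333 in 91 cells of *mdx*, and 108 in 163 against 377 in 69 of D2-*mdx*) and less *Itga7* (15.6 against 45.5 and 12.3 against 31.2 CPM).

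Endothelial-like cells had neither sort gene at a high level. *Itga7* was at 7.76 CPM in *mdx* and 6.44 in D2-*mdx*, 11.2% and 9.80% of the MuSC-like level, and *Vcam1* at 52.5 and 46.4 CPM, in libraries where 16.4% and 15.8% of all genes were at least 2-fold lower and 20.9% and 20.6% higher. Their leading alpha chain was *Itga6*, at 448 and 471 CPM, followed among the listed alpha chains by *Itga5* at 58.9 and 45.1 CPM. Markers of the negative gate were present as RNA: *Pecam1*, which encodes CD31, was at 934 and 1002 CPM and *Ly6a*, which encodes SCA1, at 2791 and 2070 CPM.

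White blood-like cells had *Ptprc* at 555, 299 and 357 CPM and *Itgam*, which encodes CD11b, at 253, 113 and 203 CPM in *mdx*, DBA and D2-*mdx*. They held *Itga4* at 114, 82.5 and 85.0 CPM, beside 101 CPM in the glial-like cells of B10. *Itga7* was at 18.9, 55.0 and 15.1 CPM and *Vcam1* at 86.6, 519 and 120 CPM. *Pax7* was at 86.6, 368 and 75.5 CPM in the same cells, 21 of them in DBA. In white blood-like cells without a *Pax7* UMI, *Vcam1* was at 18.6 CPM in *mdx* (70 cells) and 45.0 in D2-*mdx* (106 cells), against 184 and 258 CPM in those with one, whereas in DBA the 5 cells without one held more, 922 CPM on 90 UMIs, than the 16 cells with one, 316 CPM. Cells with a *Pax7* UMI also held more UMIs, a median of 12594 against 7095 in *mdx*. The part of mixed droplets and free RNA in these values was not tested.

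Fibroblast or tenocyte-like cells, 29 in *mdx* and 50 in D2-*mdx*, held *Itgb5* at 165 and 181 CPM, *Itgav* at 94.98 and 77.2, and *Itga5* at 49.0 and 44.1 CPM. *Itga7* was at 15.3 and 3.15 CPM and *Vcam1* at 129 and 150 CPM.

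Ordered by mean CPM over libraries, *Itga7* ran from vascular smooth muscle-like (144) and pericyte-like cells (110) through differentiating myocyte-like (92.9), cycling progenitor-like (89.7), DMD-enriched-like (89.6), MuSC-like (68.4), immunomyoblast-like (61.6), Schwann-like (53.6), glial-like (44.3) and white blood-like (29.7) to fibroblast or tenocyte-like (9.23) and endothelial-like cells (7.10). From pericyte-like cells on, the ranges over libraries of each class and the next in this order overlapped. *Vcam1* had another order: immunomyoblast-like (642), DMD-enriched-like (527), MuSC-like (491), differentiating myocyte-like (398), cycling progenitor-like (294), white blood-like (242), glial-like (215), fibroblast or tenocyte-like (139), pericyte-like (122), Schwann-like (76.7), endothelial-like (49.4) and vascular smooth muscle-like cells (24.9). The ranges of neighbors in that order were apart between glial-like and fibroblast or tenocyte-like cells and between endothelial-like and vascular smooth muscle-like cells. Differentiating and cycling cells all but touched, at a lowest value of 341.8 and a highest of 341.2 CPM. Elsewhere the ranges overlapped. The libraries behind these means differ between classes, and the place of the white blood-like cells rests on the 519 CPM of DBA, since *mdx* and D2-*mdx* held 86.6 and 120 CPM. Schwann-like cells without a *Pax7* UMI held *Vcam1* at 12.3 CPM in *mdx* (77 cells) and 27.6 in D2-*mdx* (35 cells). Those with one held 332 (3 cells) and 284 CPM (15 cells). Over 36 sums of a class in a library, which share the libraries and their depth, the Pearson correlation of log2(CPM + 1) was 0.360 for *Itga7* with *Vcam1*, 0.862 for *Vcam1* with *Pax7* and 0.307 for *Itga7* with *Pax7*, as a description.

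**Figure D4:**
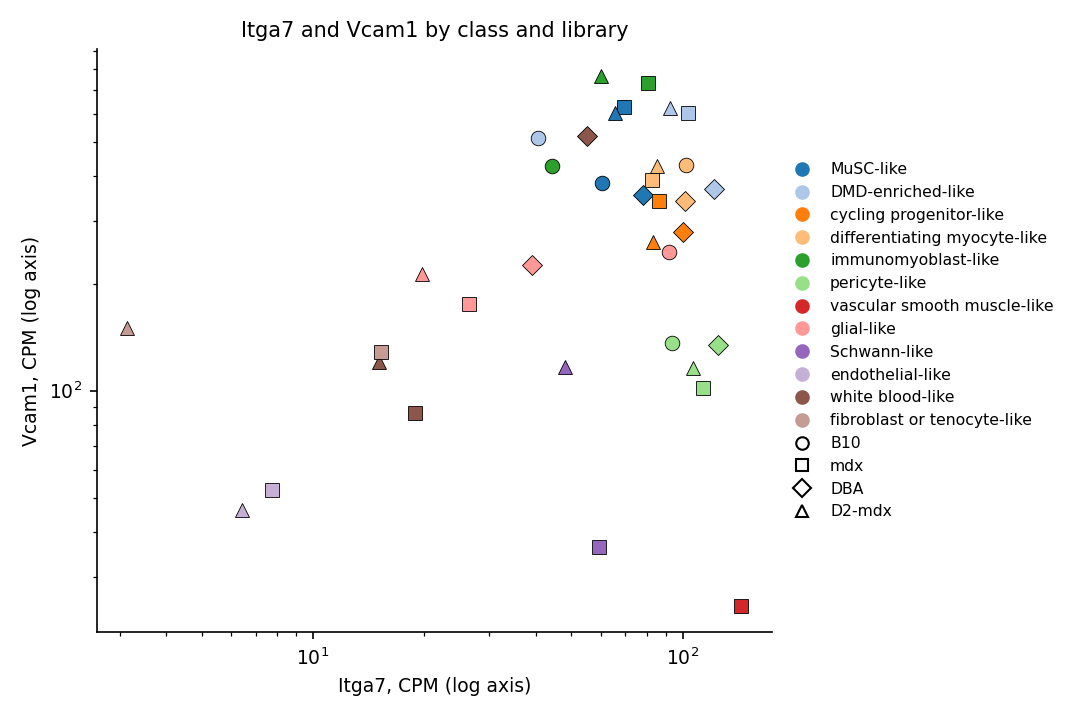
*Itga7* against *Vcam1*, both in CPM on log axes, with 1 point per class (color) and library (shape) of at least 20 cells. Pericyte-like cells lay to the right of and below the MuSC-like cells (93.7 to 124 against 60.5 to 78.2 CPM of *Itga7*, and 102 to 136 against 354 to 628 CPM of *Vcam1*), and endothelial-like cells lay low on both axes.

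By the same measure, and among 7470 genes, those most like *Itga7* were *Smarcd3* (0.868), a chromatin remodeling subunit, *Des* (0.792), the muscle intermediate filament, *Prkar2b* (0.768), a regulatory subunit of protein kinase A, *Dmpk* (0.764), a muscle kinase, and *Nexn* (0.760), an actin-binding protein. Those most like *Vcam1* were *Igsf3* (0.911), *Hs6st2* (0.900), a heparan sulfate sulfotransferase, *Rpl12* (0.896), a ribosomal protein, *Fgfr4* (0.896), a fibroblast growth factor receptor, and *Cdon* (0.895), a cell surface protein of myoblasts.

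Per cell, both sort genes were often missed at this depth. With each cell thinned to 3000 UMIs, *Itga7* gave a UMI in 16.0%, 19.5%, 21.2% and 18.2% of the myogenic cells of B10, *mdx*, DBA and D2-*mdx*, and *Vcam1* in 64.3%, 73.2%, 59.5% and 73.9%. UMIs of both were found in 10.2% (9.35 to 11.2), 14.8% (13.8 to 15.8), 13.2% (11.9 to 14.5) and 13.9% (12.8 to 15.0) of these cells, and of neither in 29.9%, 22.0%, 32.5% and 21.7%. The dystrophic libraries had the larger share of cells with *Vcam1* in each pair, and B10 had the smallest share with both. Without thinning, 34.3%, 39.2%, 50.4% and 37.9% of the myogenic cells held both, at median depths of 8424, 6839, 10295 and 6476 UMIs, so that DBA, the deepest library, led. Thinning left out 39 shallower myogenic cells in B10 and none in the other libraries.

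Endothelial-like cells, with little *Itga7*, were present in sufficient number in *mdx* and D2-*mdx* for a comparison of these shares. At 3000 UMIs, *Itga7* was seen in 2.39% and 1.14% of them in *mdx* and D2-*mdx*, and *Vcam1* in 9.56% and 10.2%, while both genes together were seen in 0 of 251 and 0 of 88 cells, which for *mdx* allows an upper bound of 1.46%. With single shares this low, cells with both would be rare even for unrelated genes, so these zeros do not show that the genes exclude each other. The median depth before thinning was 7490 and 7608 UMIs in these cells. Pericyte-like cells held *Itga7* in 14.7%, 27.9%, 29.96% and 27.4% in B10, *mdx*, DBA and D2-*mdx*, above the endothelial-like share in *mdx* and D2-*mdx*, where it was measured, and above the myogenic share of their own library in the latter 3. Of all non-myogenic cells, 4.46%, 2.76%, 9.20% and 4.66% held UMIs of both genes at 3000 UMIs, and 25.2%, 14.3%, 43.2% and 18.1% without thinning. A myogenic cell of any library held, at the median, UMIs of 2 of the 10 listed genes at 3000 UMIs, and 10.2%, 6.75%, 8.73% and 6.90% held none.

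The other integrin subunits filled in what the listed genes did not cover. In MuSC-like cells the single further alpha chain above 10 CPM was *Itga8*, at 17.1, 14.8, 15.0 and 15.5 CPM in B10, *mdx*, DBA and D2-*mdx*. Its highest value was 192 CPM, in the vascular smooth muscle-like cells of *mdx*. *Itga1*, a collagen-binding chain, was the leading alpha chain of pericyte-like cells at 295, 377, 414 and 334 CPM, against 1.6 to 6.77 CPM in MuSC-like cells. It also held the largest mean share of all integrin alpha UMIs in glial-like cells, 32.5% beside 28.2% for *Itgav*. In endothelial-like cells it held 25.8%. *Itgb8* was at 255 and 219 CPM in Schwann-like cells of *mdx* and D2-*mdx*, and *Itgb4*, the partner of ITGA6 in many epithelia, at 98.0 and 95.9 CPM there. The leukocyte subunits *Itgb2* and *Itgax* reached 238 and 73.3 CPM in the white blood-like cells of D2-*mdx*. Further subunits with a value above 10 CPM in some class were *Itga2* (highest 51.6 CPM), *Itgb3* (36.8), *Itgb7* (30.9), *Itgal* (30.8), *Itga10* (30.6), *Itga11* (28.4), *Itga2b* (25.1) and *Itgad* (13.8), while *Itgae* and *Itgb6* stayed below it.

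Expressed as shares of all integrin alpha UMIs, *Itga7* held 51.6%, 50.5%, 56.3% and 48.3% in the MuSC-like cells of B10, *mdx*, DBA and D2-*mdx*, with *Itgav* next at 21.7%, 19.97%, 21.1% and 19.5% and *Itga8* after it at 14.6%, 10.8%, 10.8% and 11.4%. In differentiating myocyte-like cells the *Itga7* share was 65.8%, 68.3%, 64.1% and 64.2%, above the MuSC-like share of the same library in all 4. In pericyte-like cells *Itga7* held 16.6%, 17.9%, 17.6% and 18.9% in spite of its higher level, since *Itga1* held 52.4% to 59.4%. *Itga6* held 57.7% and 60.0% in endothelial-like and 62.1% and 58.9% in Schwann-like cells of *mdx* and D2-*mdx*.

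**Figure D5:**
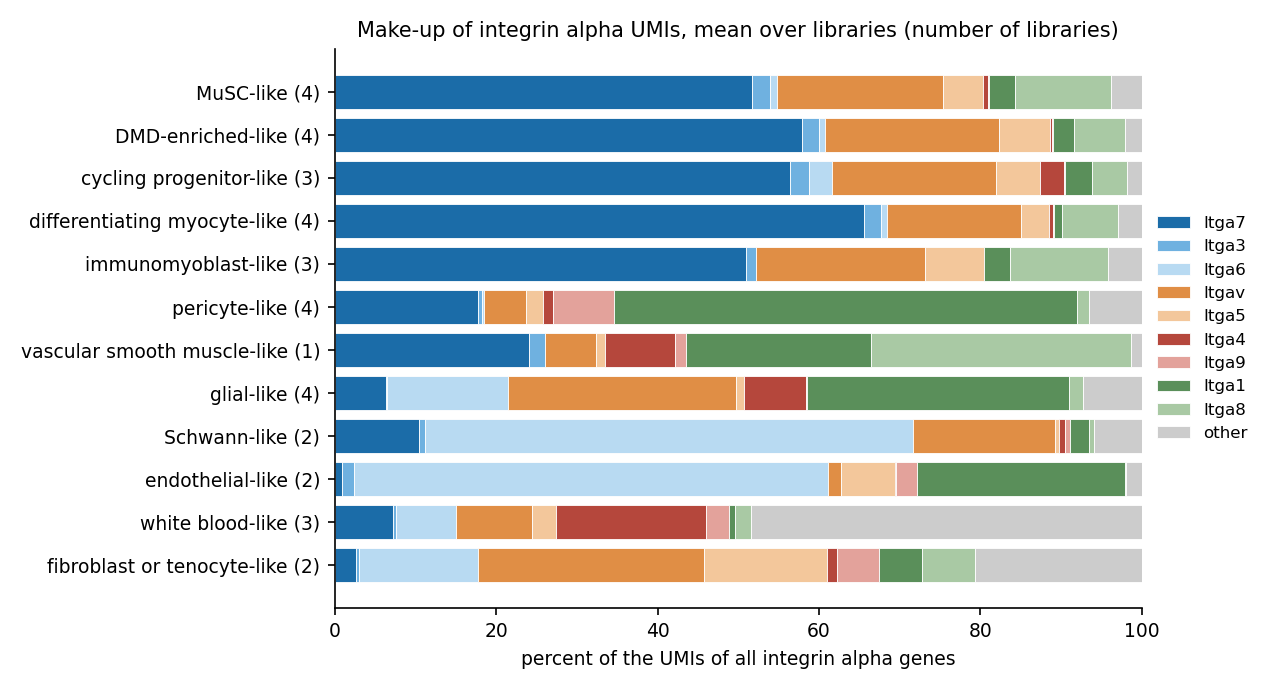
Stacked bars of the percent of the UMIs of all integrin alpha genes held by each gene, as the mean over libraries with at least 20 cells (number of libraries in brackets). *Itga7* held 51.7% in MuSC-like and 65.6% in differentiating myocyte-like cells but 17.7% in pericyte-like cells, where *Itga1* held 57.4%.

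Ligands of these receptors passed the 2-fold limit in both comparisons of a dystrophic with a healthy library. Of 12 further integrin ligands, 10 were at 10 CPM or more. For *mdx* over B10, 6 of them were at least 2-fold higher (*Fn1*, *Spp1*, *Tnc*, *Thbs1*, *Postn* and *Tgfb1*) and 1 lower (*Vtn*), with a median log2 ratio of 2.00, beside 4.68% of all genes higher and 5.17% lower. For D2-*mdx* over DBA the same 6 were higher and 2 lower (*Vtn* and *Nid1*), with a median of 2.51, beside 5.82% and 5.86%. All 6 reached 10 CPM in the dystrophic libraries alone, with 0.0251 to 7.02 CPM in the healthy ones, and *Spp1*, *Tnc* and *Postn* could not pass the minimum without being at least 2-fold higher, so the counts and medians are descriptions only. *Spp1*, the secreted ligand osteopontin, was at 0.0251 CPM on 1 UMI of B10 and at 0.431 CPM in DBA, against 52.0 and 151 CPM in *mdx* and D2-*mdx*, and *Postn*, the matrix protein periostin, at 0.451, 118, 2.22 and 56.6 CPM. *Postn* was also among the markers that named the DMD-enriched-like cells, of which the dystrophic libraries held 949 and 549 and the healthy ones 30 and 27. *Vtn*, which encodes the ITGAV ligand vitronectin, was at 102, 31.3, 84.7 and 31.9 CPM, and the basement membrane gene *Nid1* at 26.2, 17.8, 35.7 and 15.8 CPM.

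Laminin chains, the ligands of ITGA7, had median log2 ratios below 0 in both comparisons. Of 11 chains, 7 were at 10 CPM or more for *mdx* over B10, where 1 was at least 2-fold higher (*Lamb1*) and 2 lower (*Lama3* and *Lamc3*), with a median of −0.61, beside 4.68% of all genes higher and 5.17% lower. For D2-*mdx* over DBA 5 were measured, 1 was lower (*Lamc3*) and the median was −0.50, beside 5.82% higher and 5.86% lower. *Lama3* and *Lamc3* passed the minimum through the healthy libraries alone. *Lamc3* was at 21.9, 2.03, 17.9 and 3.29 CPM and *Lamc1* at 204, 123, 255 and 135 CPM in B10, *mdx*, DBA and D2-*mdx*, so that both healthy libraries lay above both dystrophic ones. *Lamb1* was at 11.7, 58.6, 25.3 and 48.7 CPM, with the healthy libraries lower, and *Lama2*, the muscle laminin chain, at 116, 137, 112 and 110 CPM.

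Of 27 cytoplasmic activators and adaptors of integrins, 19 were measured in each comparison, and 1 and 2 passed the limit, beside 9.85% and 11.7% of all genes. *Tns2*, a tensin that links integrin tails to actin, was lower in both, at 58.9, 12.8, 47.6 and 14.4 CPM, and *Tns3* was past the limit, higher, for D2-*mdx* over DBA, at 12.5, 21.4, 6.33 and 25.9 CPM. The list's median log2 ratio was 0.05 and 0.04. *Lims1*, which encodes the adaptor PINCH1, was at 149, 121, 167 and 132 CPM, and *Itgb1bp1*, whose product binds the ITGB1 tail, at 16.6, 23.9, 21.9 and 30.3 CPM. Of 10 tetraspanins and other surface partners, all measured, none passed 2-fold for *mdx* over B10 and 2 were higher for D2-*mdx* over DBA, *Cd9* and *Plaur*, with medians of 0.42 and 0.50 and the same shares of all genes as above. *Cd151*, a tetraspanin partner of laminin-binding integrins, was at 69.4, 113, 65.1 and 130 CPM, and *Plaur*, the urokinase receptor, at 5.21, 10.3, 3.02 and 15.2 CPM. For D2-*mdx* over DBA, *Plaur* and *Tns3* reached 10 CPM through D2-*mdx* alone. *Plaur* could not pass that minimum without being at least 2-fold higher, so the counts that hold these genes are descriptions only. *Sdc4*, a heparan sulfate proteoglycan, was at 1140, 675, 612 and 552 CPM, and *Slc3a2*, which encodes CD98, at 96.4, 75.5, 122 and 87.1 CPM.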

How the data were processed

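Sorted cells of 4 libraries, 1 per strain, were sequenced with 10X Genomics 3′ v3.1 chemistry. The deposited values are raw UMI counts per gene and barcode, which the authors made with Cell Ranger 3.0.1 on mm10. From these counts, barcodes were kept that had between 1000 and 5000 genes and no more than 8% of UMIs from mitochondrial genes. The cells with the highest Scrublet doublet scores were then removed as predicted doublets. Their share (2.7% to 5.34% of cells) was set beforehand, as a fraction of 0.008 for each 1000 cells in the library. Cells were integrated and clustered with Seurat 5.3.0 (2000 variable features without integrin genes or *Vcam1*, 30 dimensions, resolution 0.1 for all and 0.2 for myogenic cells). A myogenic cluster whose 2 leading marker lists both averaged above 1 and lay within 0.5 of each other was split, a rule added after the clusters had been seen. UMIs were summed per class and library and given as CPM, with exact Poisson, Clopper-Pearson or binomial intervals. With 1 library per strain, single strains were compared without a test. The sums of the 2 healthy and the 2 dystrophic libraries were also compared with edgeR's quasi-likelihood test (TMM, filterByExpr, Benjamini-Hochberg adjustment over all genes tested), an addition made after the values had been seen, with the SE taken as the log2 fold change over the root of F. A gene counted as different at 2-fold with at least 10 CPM in either sum. The genes, gene lists and markers were chosen with earlier results of these data known. Genes outside the list were named by rule: integrin subunits of at least 10 CPM in a class, the 2 highest and 2 lowest of each list by mean log2 ratio, the negative-gate and free RNA genes, and the 5 genes most correlated with *Itga7* and *Vcam1*; genes that lead a cluster or make up a short count were named after their values were seen. Ratios and the edgeR fit were checked on simulated counts. Alternatives used other filters, doublets kept, no integration, other dimensions and resolutions, integrin genes kept as features, TMM sizes (edgeR 4.0.16), DESeq2 1.42.0 size factors, other minima and other thinning depths. Gene positions are from GENCODE on GRCm38.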

Additional observations from a re-analysis of the deposited data

Results flagged for a closer look

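Of the 5 genes at 10 CPM or more in myogenic cells, 4 had ratios of opposite sign on the 2 strain backgrounds. The log2 ratio of *mdx* over B10 exceeded that of D2-*mdx* over DBA by 0.49 for *Itga7*, 0.34 for *Itgb1*, 0.27 for *Itgav* and 0.50 for *Itgb5*. With 1 library per strain these differences were not tested, and the opposite signs are not all clear of counting error: the interval of *Itgav* for *mdx* over B10 was −0.03 to 0.22 and that of *Itgb5* for D2-*mdx* over DBA −0.29 to 0.15. On the DBA background the sign turned in 3 of 12 alternatives for *Itgb1* (up to 0.04), in 2 for *Itgb5* (up to 0.05) and in 1 for *Itgav* (0.26, over all cells). Age, strain and library cannot be told apart here.

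Barcodes that the filters left out also held UMIs of the listed genes at levels 2-fold or more from the kept cells of their library, among sets of at least 100 barcodes, limits that were chosen after the values had been seen. In the 4739 barcodes of B10 with fewer than 1000 genes, *Itgb1* was at 149 CPM, *Itgb5* at 7.08 and *Vcam1* at 183, against 369, 17.002 and 377 CPM in the kept cells. CPM counts mitochondrial UMIs in the total, and their median share was 71.4% in these barcodes and 4.02% in kept cells. *Pax7* was lower there as well, at 537 against 874 CPM, but *Itga7* was not, at 71.9 against 63.4 CPM. In the barcodes with over 5000 genes, *Vcam1* was at 217 CPM in *mdx* (214 barcodes) and 175 in D2-*mdx* (502 barcodes), against 466 and 424 CPM in kept cells, and *Itgb5* at 15.1 and 11.8 CPM against 38.2 and 40.8. In DBA the 129 barcodes with over 5000 genes held *Itga6* at 18.8 CPM and *Itga4* at 34.3 CPM, against 5.65 and 2.65 CPM. *Itga7* was at 165 CPM in the 269 barcodes of *mdx* with 1000 to 5000 genes and over 8% mitochondrial UMIs, against 78.2 CPM, and *Itga6* at 40.1 CPM in the 293 predicted doublets of D2-*mdx*, against 18.2 CPM. With at least 500 genes and no upper limit, cycling progenitor-like cells numbered 49, 332, 66 and 743 in B10, *mdx*, DBA and D2-*mdx*. The main filter left 15, 165, 29 and 329 of them. Differentiating myocyte-like cells went the other way, to 58, 228, 53 and 226 from 152, 369, 90 and 348. The class of each left-out barcode was not counted, and its part in these values was not tested.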

How the results depend on the processing

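No paired analysis was possible because the labels give no replicate numbers that pair libraries, but the strain background could serve as a block in the test of 2 healthy against 2 dystrophic libraries, an addition made after the values had been seen. The count of listed genes called there, 1, became 4 with the block, 2 with DESeq2, 0 in MuSC-like cells alone and 3 in them with the block. The share of all genes called was 10.4% in the first fit, then 31.5%, 23.6%, 0.867% and 15.8%. Fits with a library left out leave a group without a replicate, and no count is given for them. At an unadjusted p under 0.05 by edgeR, 5 listed genes passed in MuSC-like cells, where 3486 of all 13489 genes tested did. With a library left out, the log2 fold change lay between −0.12 and 0.12 for *Itgav*, −0.17 and 0.65 for *Itgb5*, and 0.57 and 0.70 for *Vcam1*. The log2 ratio of *Vcam1* stayed above 0 under all 12 alternatives in both disease comparisons (0.31 to 0.72 for *mdx* over B10, 0.24 to 0.77 for D2-*mdx* over DBA). The 0.24 came with at least 500 genes and no upper limit. For D2-*mdx* over DBA, 6 of 12 alternatives lay within the counting interval of the main ratio. *Itga7* ranged from 0.19 to 0.45 and from −0.25 to −0.01. For D2-*mdx* over DBA, *Itgb1* turned sign in 3 of 12 (0.01 with TMM, 0.04 with DESeq2 size factors and 0.01 in MuSC-like cells). In the same comparison *Itgav* turned to 0.26 over all cells. Over all cells *Itgb5* also turned between the strain backgrounds (0.09 in the dystrophic and 1.21 in the healthy pair). A count has no sign that could reverse, so counts were checked for change only. Of 76 recomputed counts of listed genes past 2-fold, 12 changed, and of 72 counts for the gene lists, 25 changed.

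The count of listed genes past 2-fold, 0 for each pair of libraries, became 2 (*mdx* over B10), 1 (D2-*mdx* over DBA) and 1 (DBA over B10) over all cells, whose make-up differs between libraries, and with no minimum level 3, 2, 2 (D2-*mdx* over *mdx*) and 2. The count of 4 for states against MuSC-like cells became 8 with at least 500 genes and no upper limit, 0 with doublets kept, 0 with 20 dimensions, 1 with a 50 CPM minimum and 13 with none. With doublets kept, the DMD-enriched-like class alone remained beside the MuSC-like cells, with 20 dimensions no cycling class was found, and without integration no DMD-enriched or immunomyoblast class. The count of 98 for the non-myogenic classes stayed within 1.5 times under each alternative.

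The share of cells with both *Itga7* and *Vcam1* depends on the UMIs per cell. In B10, *mdx*, DBA and D2-*mdx* it was 5.43%, 8.70%, 6.51% and 8.57% of myogenic and 1.23%, 1.01%, 4.69% and 2.87% of non-myogenic cells at 2000 UMIs, 18.6%, 29.2%, 23.5% and 25.6% and 13.7%, 7.80%, 17.4% and 10.5% at 5000 UMIs, and 34.3%, 39.2%, 50.4% and 37.9% and 25.2%, 14.3%, 43.2% and 18.1% without thinning. For the non-myogenic cells of *mdx* it was 4.13% with at least 500 genes and no upper limit and 4.84% with doublets kept.

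Counts of list genes past 2-fold are given for *mdx* over B10 first. Over all cells the other alpha subunits went from 0 to 1 in that comparison, the other beta subunits from 0 to 1 in both, laminin chains from 1 to 2 and ligands from 8 to 4 in D2-*mdx* over DBA, activators from 1 to 5 in *mdx* over B10, and partners from 2 to 1 in D2-*mdx* over DBA. With a 50 CPM minimum laminin chains had 1 and 0, ligands 3 and 3, activators 0 and partners 1 in D2-*mdx* over DBA. With no minimum the other alpha subunits had 2 and 4, other beta subunits 3 and 5, laminin chains 5 and 4 and activators 6 and 5. DESeq2 size factors gave 2 laminin chains in D2-*mdx* over DBA, and partners for *mdx* over B10 were 1 with TMM, with DESeq2 size factors and in MuSC-like cells alone. DESeq2 size factors also moved the share of higher genes among those past 2-fold for D2-*mdx* over DBA from 49.8% to 57.3%.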
